A study of Mus musculus with 22 samples.

Results

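The gene set described here holds 30 genes of cholesterol synthesis, of its control by the transcription factor SREBP2, and of cholesterol uptake, transport and storage. Its members were the rows of the count table whose Ensembl ID carries one of the 30 symbols in the mouse genome build GRCm38, and all 30 were found among the 15448 genes of the table. By role, 8 encode enzymes of the early mevalonate pathway, 11 enzymes of the late sterol pathway, 5 regulators, and 6 proteins of uptake, transport and storage.

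The values are read counts per gene from polyA RNA of the livers of 22 wild-type male CD2F1 mice, a hybrid laboratory strain. C26-TDCA mice (n = 8) carried C26 cells, a mouse colon carcinoma line whose transplants cause wasting, and received taurodeoxycholic acid (TDCA), a taurine-conjugated secondary bile acid, at 10 mg/kg daily by intraperitoneal injection. C26 mice (n = 8) carried C26 cells with no further treatment, and CT mice (n = 6) carried no tumour, were sham-injected and are labelled as given vehicle. Each library is 1 mouse; no group received TDCA without a tumour, and TDCA itself and the daily injection cannot be told apart here. The sources used here do not give age, food intake, tumour size or the time of day at sampling. Levels below are counts per 1e6 mapped to genes, scaled by the TMM method (CPM), and 3 values in a row are the lowest, the median and the highest library of a group.

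Liver makes much of the body's cholesterol from acetyl-CoA through mevalonate, isoprenyl diphosphates, squalene and lanosterol. When endoplasmic reticulum sterols are low, the escort protein SCAP carries SREBP2 to the Golgi, where proteases release the part that enters the nucleus and activates most enzymes of the pathway. INSIG proteins hold SCAP and SREBP2 back when sterols are plentiful, and Insig1 is itself a target of SREBP2.

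Promoter sequences are shown for members that differed most between tumour-bearing and control livers, since the pathway is known for shared promoter elements. They are the members called with an absolute log2 fold change over 0.9 in C26 against CT livers; Sqle, Soat2, Npc1 and Stard4 passed the same limit and are named only. Each sequence is RefSeq's, of build GRCm38.p6, and runs 5′ to 3′ on the strand of the gene over 250 bases before and 50 bases after the annotated start. Capitals mark CACCCCAC (part of the classic sterol regulatory element), CCAAT (the box bound by the factor NF-Y) and GGGCGG (the box bound by SP1), each searched on both strands, so that a match on the other strand reads ATTGG or CCGCCC.
Hmgcs1 chr13:119690101-119690400 (plus strand): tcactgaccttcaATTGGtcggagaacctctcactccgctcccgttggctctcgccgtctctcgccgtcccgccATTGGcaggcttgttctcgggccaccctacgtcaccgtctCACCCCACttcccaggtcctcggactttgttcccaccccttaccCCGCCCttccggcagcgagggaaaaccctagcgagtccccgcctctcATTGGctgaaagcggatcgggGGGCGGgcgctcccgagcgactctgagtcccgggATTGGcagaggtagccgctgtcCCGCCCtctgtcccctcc
Tm7sf2 chr19:6067801-6068100 (minus strand): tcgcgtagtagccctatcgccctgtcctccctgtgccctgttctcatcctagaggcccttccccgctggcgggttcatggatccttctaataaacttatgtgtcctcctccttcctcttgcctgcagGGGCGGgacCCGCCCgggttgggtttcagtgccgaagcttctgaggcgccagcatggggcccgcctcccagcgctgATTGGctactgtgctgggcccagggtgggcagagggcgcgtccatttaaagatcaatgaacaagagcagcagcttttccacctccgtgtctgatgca
Sc5d chr9:42264251-42264550 (minus strand): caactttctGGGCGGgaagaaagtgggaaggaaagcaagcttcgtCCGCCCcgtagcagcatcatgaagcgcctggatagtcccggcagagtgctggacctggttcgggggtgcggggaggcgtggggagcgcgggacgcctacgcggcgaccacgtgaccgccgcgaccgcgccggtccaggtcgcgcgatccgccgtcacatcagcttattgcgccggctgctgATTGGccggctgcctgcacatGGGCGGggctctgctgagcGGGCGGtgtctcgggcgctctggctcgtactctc
Insig1 chr5:28071162-28071461 (plus strand): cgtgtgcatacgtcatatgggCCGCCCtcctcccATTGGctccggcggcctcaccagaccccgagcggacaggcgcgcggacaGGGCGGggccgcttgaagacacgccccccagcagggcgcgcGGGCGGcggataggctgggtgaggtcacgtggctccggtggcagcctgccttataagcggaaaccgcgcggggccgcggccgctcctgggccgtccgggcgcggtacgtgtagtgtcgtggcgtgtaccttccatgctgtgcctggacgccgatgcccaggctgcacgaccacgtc
Lrp1 chr10:127621099-127621398 (minus strand): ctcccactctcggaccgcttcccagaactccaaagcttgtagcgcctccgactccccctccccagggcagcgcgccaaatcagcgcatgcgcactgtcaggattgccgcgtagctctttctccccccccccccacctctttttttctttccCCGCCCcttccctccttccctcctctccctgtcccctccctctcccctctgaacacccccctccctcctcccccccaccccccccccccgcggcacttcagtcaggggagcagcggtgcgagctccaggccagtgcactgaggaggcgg

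Hmgcs1 held CACCCCAC at base -136 before its start, with 4 CCAAT matches and 3 GGGCGG matches. Tm7sf2, Sc5d and Insig1 each held 1 CCAAT match and 2, 4 and 3 GGGCGG matches, and Lrp1 held 1 GGGCGG match alone. Matches of different motifs did not overlap in these windows. Of the 30 members, 24 matched a promoter entry: CCAAT was found in 21 of these 24 (87.5%), against 42.6% of all tested genes with an entry. GGGCGG was found in 22 of 24 (91.7%), against 65.1% of tested genes, and CACCCCAC in 2 of 24 (8.33%), against 3.82%. A match describes these letters only and is no measure of binding.

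The liver label was checked against hepatocyte markers. All 8 were detected, with a summed level of 24513 to 32450 CPM in C26-TDCA livers, 22930 to 33363 CPM in C26 livers and 54236 to 63889 CPM in CT livers. Alb was the largest part of that sum, at a mean of 14135 CPM in C26-TDCA, 15181 CPM in C26 and 42189 CPM in CT livers. Against CT livers, 2 markers were called higher and 4 lower in C26-TDCA, and 3 higher and 4 lower in C26. Tat and Hnf4a were among the higher in both, and Apoa1 was called in neither. Depth was 20.5 to 28.3 M counts in C26-TDCA libraries, 17.5 to 28.1 M in C26 libraries and 16.5 to 25.3 M in CT libraries. A count of 3 equals at most 0.179 CPM in these libraries, and every member lay above that in every library. The first principal component of all genes lay at -46.6 to -22.7 in C26-TDCA, at -51.5 to -4.01 in C26 and at 85.0 to 92.7 in CT libraries. The 20 most counted genes took 34.8 to 39.2% of counts in C26-TDCA, 33.1 to 39.9% in C26 and 21.6 to 21.9% in CT libraries, and mitochondrial genes took 3.21 to 3.89% in C26-TDCA, 2.92 to 4.15% in C26 and 5.59 to 6.18% in CT libraries. The part of this difference in composition in the values below was not tested. Groups were compared with edgeR's quasi-likelihood test over 14785 genes, and a gene is called when its Benjamini-Hochberg adjusted p is under 0.05.

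Counted over all members, 6 were higher and 7 lower in C26-TDCA against CT livers, and 9 were higher and 7 lower in C26 against CT livers. Over all genes tested, 28.7% were called higher and 28.2% lower in C26-TDCA against CT livers, and 28.9% higher and 29.2% lower in C26 against CT livers. The share of members called, 13 of 30 in C26-TDCA and 16 of 30 in C26 livers, was thus no greater than the 57.0% and 58.1% of all genes called in those comparisons. Every C26-TDCA liver lay above every CT liver for 4 members and below for 7, against 15.4% and 16.2% of all genes (31.6% together). Every C26 liver lay above every CT liver for 4 members and below for 6, against 14.2% and 15.3% of all genes (29.5% together). The median log2 fold change of the members was 0.02 in C26-TDCA and 0.18 in C26 livers, against 0.01 and -0.00 over all genes. By role, early mevalonate genes had median log2 fold changes of 0.01 in C26-TDCA and 0.26 in C26 livers, late sterol genes -0.05 and 0.11, regulators 0.18 and 0.44, and uptake, transport and storage genes 0.35 and 0.47. In C26-TDCA and C26 livers, 12.5% and 25% of early mevalonate and 27.3% and 36.4% of late sterol genes were called. For regulators the shares were 80% and 100%, and for uptake, transport and storage genes 83.3% in both. Each role holds few genes, and these shares are to be read beside the 57.0% and 58.1% of all genes. Both comparisons use the same 6 CT livers, so they are not independent of each other.

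Early mevalonate genes showed no common shift between tumour-bearing and control livers. In C26 against CT livers 1 of the 8, Hmgcs1, was higher and 1, Acat2, was lower, and in C26-TDCA against CT livers Acat2 alone was lower. Hmgcs1, which makes HMG-CoA from acetoacetyl-CoA and acetyl-CoA, was at 23.4, 105 and 148 CPM in C26-TDCA livers, 26.1, 123 and 185 CPM in C26 livers and 41.5, 49.0 and 63.4 CPM in CT livers. Both tumour-bearing groups reached below and far above the CT range. On the log2 scale its fold change was 0.77 (SE 0.42, adjusted p = 0.115) in C26-TDCA and 1.02 (SE 0.42, adjusted p = 0.0399) in C26 livers against CT livers. The C26 call was near the limit: it was lost when any one of C26 2, 4, 5, 7 or 8 or CT 1, 2, 5, 6 or 8 was left out, with log2 fold changes of 0.85 to 1.06 and adjusted p of 0.0518 to 0.0879. It was also lost with voom.

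Acat2, the cytosolic acetoacetyl-CoA thiolase at the head of the pathway, was at 15.5, 23.9 and 30.5 CPM in C26-TDCA livers, 19.5, 26.6 and 37.4 CPM in C26 livers and 30.9, 38.1 and 39.7 CPM in CT livers. No C26-TDCA liver reached the lowest CT liver, whereas the ranges of C26 and CT livers overlapped. Against CT livers, its log2 fold change was -0.64 (SE 0.13, adjusted p = 0.000233) in C26-TDCA and -0.44 (SE 0.13, adjusted p = 0.0063) in C26 livers. A near-identical paralog, Acat3, makes the Acat2 count uncertain, because the sources used here do not say how reads matching several genes were treated. For the same reason, and with no strand setting given, Hmgcs1, Idi1, Ggps1, Fdft1, Lss, Cyp51, Scap and Npc1, whose exons share bases with a gene on the opposite strand, are uncertain to an unknown extent. Idi1, the isopentenyl-diphosphate isomerase, spanned 5.31, 32.7 and 49.8 CPM in C26-TDCA livers, 8.02, 35.4 and 54.2 CPM in C26 livers and 14.9, 22.9 and 28.7 CPM in CT livers, the widest ratio of highest to lowest library among early genes in the C26-TDCA group. Mvk, Pmvk and Mvd, the kinases and decarboxylase that turn mevalonate into isopentenyl diphosphate, had log2 fold changes of 0.08, -0.51 and 0.06 in C26-TDCA and 0.41, -0.23 and 0.39 in C26 livers, none called. Mvk passed the threshold in C26 livers without C26 1 (or without C26 3), at 0.49 to 0.52, and Pmvk passed it in C26-TDCA livers without C26-TDCA 1, C26-TDCA 7, C26 3 or CT 8, at -0.61 to -0.51.

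Fdps, the farnesyl-diphosphate synthase, was the lowest synthesis gene per length, with means of 0.935 CPM per kb of its longest transcript in C26-TDCA, 1.23 in C26 and 1.12 in CT livers. Its exons share bases with another annotated gene on the same strand, so its count is uncertain. Ggps1, which makes geranylgeranyl diphosphate for protein prenylation, differed least among the early genes, with log2 fold changes of -0.04 in C26-TDCA and -0.09 in C26 livers.

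Late sterol genes differed from each other in direction: Sqle was higher in both tumour-bearing groups, while Tm7sf2 and Sc5d were lower in both. Of the 11, 1 was higher and 2 lower in C26-TDCA, and 2 were higher and 2 lower in C26, against CT livers. Sqle encodes squalene monooxygenase, a rate-limiting step after squalene, and its level was 27.7, 88.6 and 110.2 CPM in C26-TDCA livers, 33.2, 104 and 140.1 CPM in C26 livers and 16.0, 22.8 and 31.8 CPM in CT livers. All 8 C26 livers lay above every CT liver, and 7 of 8 C26-TDCA livers did. Its log2 fold change was 1.74 (SE 0.34, adjusted p = 0.000106) in C26-TDCA and 2.01 (SE 0.34, adjusted p = 1.97e-05) in C26 livers, the highest of the 30 members in both.

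Tm7sf2 encodes a sterol reductase that acts on the product of Cyp51, and was at 18.1, 28.8 and 40.1 CPM in C26-TDCA livers, 14.4, 33.8 and 64.8 CPM in C26 livers and 75.8, 82.1 and 99.4 CPM in CT livers. No tumour-bearing liver of either group reached the lowest CT liver. On the log2 scale its fold change was -1.55 (SE 0.25, adjusted p = 9.62e-06) in C26-TDCA and -1.35 (SE 0.25, adjusted p = 5.30e-05) in C26 livers. Part of its exons overlap Vps51 on the same strand, which makes the count uncertain.

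Sc5d, the lathosterol desaturase, was at 81.4, 130.1 and 163 CPM in C26-TDCA livers, 80.5, 126 and 165 CPM in C26 livers and 198, 225 and 304 CPM in CT livers. Here too the ranges did not overlap. Against CT livers, its log2 fold change was -0.92 (SE 0.15, adjusted p = 1.48e-05) in C26-TDCA and -0.94 (SE 0.15, adjusted p = 1.22e-05) in C26 livers. Dhcr7, the sterol reductase that acts on 7-dehydrocholesterol, was at 43.1, 60.8 and 81.8 CPM in C26-TDCA livers, 42.3, 83.2 and 107 CPM in C26 livers and 45.6, 57.0 and 67.5 CPM in CT livers, with overlapping groups. It was called in C26 livers at 0.46 (SE 0.19, adjusted p = 0.0385) and not in C26-TDCA livers at 0.14 (SE 0.19, adjusted p = 0.542); the direct comparison of the tumour-bearing groups did not pass either, at -0.32 (SE 0.17, adjusted p = 0.375). The C26 call was lost when any one of C26 2, 4, 5, 7 or 8 or CT 5, 6 or 8 was left out, with log2 fold changes of 0.38 to 0.45 and adjusted p of 0.0534 to 0.0886. It was also lost with a trend on transcript length and GC content removed.

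The other 7 late genes were called in neither comparison with CT livers. Fdft1, the squalene synthase, was at 27.0, 68.6 and 90.3 CPM in C26-TDCA livers, 29.8, 77.2 and 105 CPM in C26 livers and 68.1, 69.6 and 80.1 CPM in CT livers. The CT livers sat within a narrow band inside the wide range of both tumour-bearing groups, and its log2 fold change was -0.19 in C26-TDCA and -0.01 in C26 livers. The lanosterol synthase Lss and the lanosterol demethylase Cyp51 had log2 fold changes of -0.40 and 0.27 in C26-TDCA and -0.25 and 0.39 in C26 livers. Msmo1, Nsdhl and Hsd17b7, which together remove methyl groups from the sterol ring, ranged from -0.16 to 0.15 in C26-TDCA and from -0.20 to 0.30 in C26 livers. Ebp, the sterol isomerase, had the narrowest intervals of these 7, at 0.04 (95% interval -0.17 to 0.25) in C26-TDCA and 0.11 (95% interval -0.09 to 0.32) in C26 livers.

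**Figure D1:**
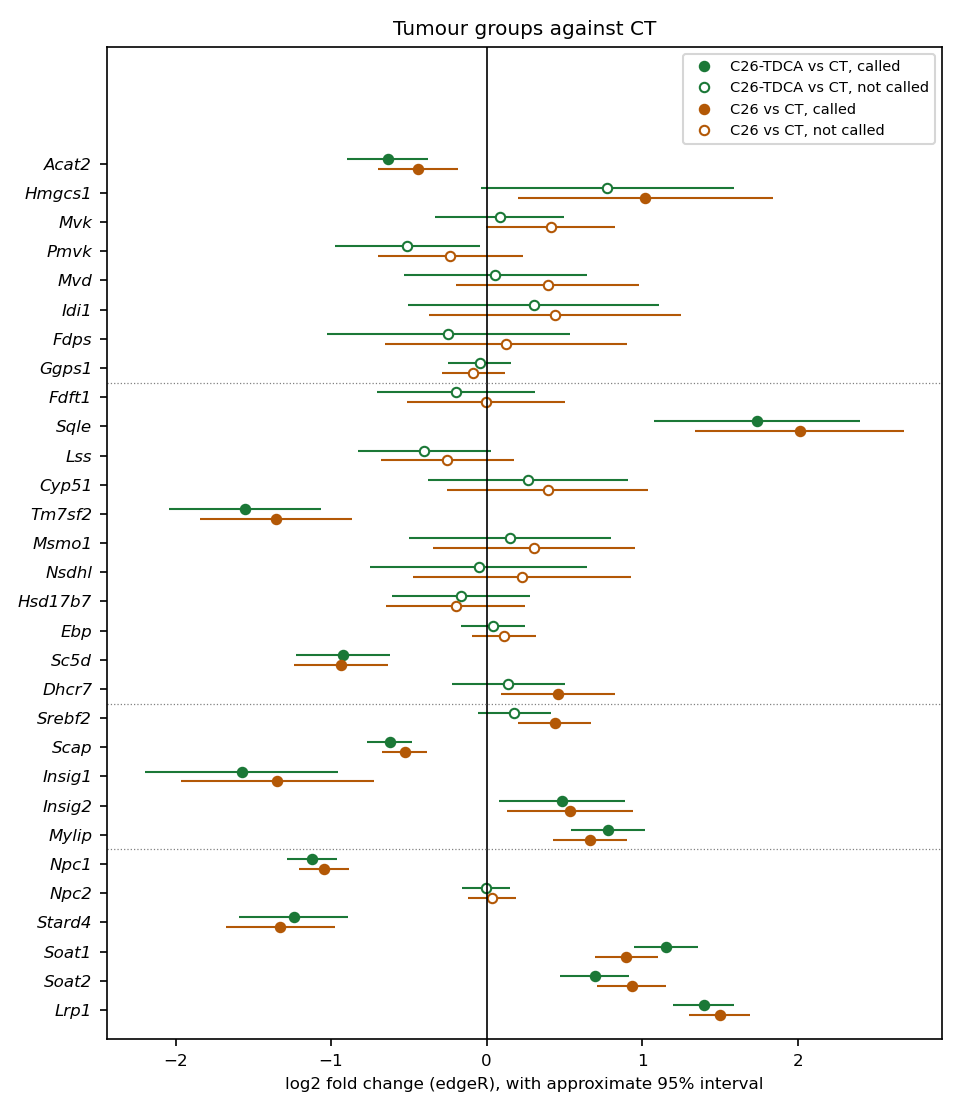
Log2 fold change of each of the 30 members against CT livers (x axis, edgeR), with approximate 95% intervals as lines; green marks C26-TDCA and orange C26, filled points are called and open points are not, and dotted lines divide the 4 roles. Sqle and Lrp1 lie farthest to the right, at 1.74 and 1.40 in C26-TDCA and 2.01 and 1.50 in C26 livers, and Tm7sf2, Insig1, Stard4 and Npc1 lie below -1 in both.

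Among the regulators, Insig1 and Scap were lower and Insig2 and Mylip higher in both tumour-bearing groups. Insig1, which retains SCAP in the endoplasmic reticulum, was at 18.6, 70.3 and 95.3 CPM in C26-TDCA livers, 25.1, 77.1 and 111 CPM in C26 livers and 127, 186 and 245 CPM in CT livers. Every tumour-bearing liver lay below every CT liver. Its log2 fold change was -1.58 (SE 0.32, adjusted p = 0.000157) in C26-TDCA and -1.35 (SE 0.32, adjusted p = 0.000783) in C26 livers. Insig2, a second retention protein known in mouse liver for an insulin-repressed transcript, was at 119, 161 and 258 CPM in C26-TDCA livers, 109, 139 and 294 CPM in C26 livers and 82.3, 119 and 147 CPM in CT livers. The groups overlapped, and C26 1, 2 and 3 were the highest of all C26 livers, at 229, 294 and 222 CPM, with the other 5 at 109 to 149 CPM. On the log2 scale its fold change was 0.48 (SE 0.21, adjusted p = 0.0482) in C26-TDCA and 0.54 (SE 0.21, adjusted p = 0.0294) in C26 livers. The call in C26-TDCA livers was lost without any one of C26-TDCA 1, 2, 3, 4 or 7, C26 5, or CT 5, 6, 7 or 8, at 0.37 to 0.50 with adjusted p up to 0.121. The call in C26 livers was lost without any one of C26 1, 2 or 3 or CT 6, 7 or 8, at 0.38 to 0.51 with adjusted p up to 0.0805. The call in C26-TDCA livers was also lost with the DESeq2 test, and that in C26 livers with voom.

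Srebf2, which encodes SREBP2, was at 32.2, 42.8 and 53.4 CPM in C26-TDCA livers, 38.1, 52.6 and 60.0 CPM in C26 livers and 34.1, 37.3 and 42.2 CPM in CT livers. All groups overlapped. It was called in C26 livers at 0.44 (SE 0.12, adjusted p = 0.00319) and not in C26-TDCA livers at 0.18 (SE 0.12, adjusted p = 0.211). With a trend on transcript length and GC content removed, the C26 value was 0.20 (adjusted p = 0.188) and no longer called. Scap was at 61.1, 70.2 and 84.4 CPM in C26-TDCA livers, 66.6, 75.4 and 89.9 CPM in C26 livers and 107, 109 and 118 CPM in CT livers, with no overlap between either tumour-bearing group and CT livers. Against CT livers, its log2 fold change was -0.62 (SE 0.07, adjusted p = 9.34e-08) in C26-TDCA and -0.53 (SE 0.07, adjusted p = 1.25e-06) in C26 livers. Mylip, a ubiquitin ligase that marks lipoprotein receptors for degradation and is a known LXR target, was at 9.45, 14.3 and 17.1 CPM in C26-TDCA livers, 8.78, 13.4 and 15.8 CPM in C26 livers and 7.62, 7.88 and 9.24 CPM in CT livers. Every C26-TDCA liver lay above every CT liver, and C26 and CT livers overlapped. Its log2 fold change was 0.78 (SE 0.12, adjusted p = 5.69e-06) in C26-TDCA and 0.66 (SE 0.12, adjusted p = 4.76e-05) in C26 livers.

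Of the genes of uptake, transport and storage, Lrp1, Soat1 and Soat2 were higher and Npc1 and Stard4 lower in both tumour-bearing groups, and Npc2 was not called. Lrp1, a large endocytic receptor for remnant lipoproteins, was at 1476, 2194 and 2372 CPM in C26-TDCA livers, 1953, 2302 and 2580.1 CPM in C26 livers and 679.6, 814 and 909.9 CPM in CT livers. Each tumour-bearing liver exceeded every CT liver, and the log2 fold change was 1.40 (SE 0.10, adjusted p = 1.60e-11) in C26-TDCA and 1.50 (SE 0.10, adjusted p = 4.92e-12) in C26 livers. Per kb of longest transcript Lrp1 was the most abundant member in the tumour-bearing groups, with means of 142 CPM per kb in C26-TDCA and 153 CPM per kb in C26 livers. In CT livers it averaged 54.0 CPM per kb and stood below Insig1 at 69.3 and Ebp at 68.8 CPM per kb.

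Soat1 and Soat2 encode the enzymes that esterify cholesterol for storage, with Soat2 the form known for hepatocytes and Soat1 the form known for macrophages and most other cells. Soat1 was at 9.14, 9.63 and 11.3 CPM in C26-TDCA livers, 7.05, 8.21 and 9.85 CPM in C26 livers and 3.67, 4.23 and 5.37 CPM in CT livers, and Soat2 at 56.9, 66.7 and 87.0 CPM in C26-TDCA livers, 56.1, 78.8 and 104 CPM in C26 livers and 35.3, 43.1 and 46.9 CPM in CT livers. For both genes every tumour-bearing liver was above every CT liver. Soat1 had a log2 fold change of 1.15 (SE 0.10, adjusted p = 1.03e-09) in C26-TDCA and 0.90 (SE 0.10, adjusted p = 6.98e-08) in C26 livers, and Soat2 of 0.69 (SE 0.11, adjusted p = 1.04e-05) in C26-TDCA and 0.93 (SE 0.11, adjusted p = 1.47e-07) in C26 livers. Per kb, Soat2 exceeded Soat1 in each group, at 31.1 against 1.18 CPM per kb in C26-TDCA, 36.7 against 0.988 in C26 and 19.2 against 0.531 in CT livers.

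Npc1, the membrane protein that moves cholesterol out of lysosomes, was at 80.5, 89.0 and 107 CPM in C26-TDCA livers, 78.1, 93.3 and 114 CPM in C26 livers and 176, 202 and 209 CPM in CT livers, and no tumour-bearing liver reached the CT range. On the log2 scale its fold change was -1.12 (SE 0.08, adjusted p = 2.65e-11) in C26-TDCA and -1.04 (SE 0.08, adjusted p = 9.62e-11) in C26 livers. Its soluble partner Npc2 was at 41.7, 44.7 and 55.4 CPM in C26-TDCA livers, 39.7, 46.2 and 57.7 CPM in C26 livers and 41.1, 44.9 and 49.5 CPM in CT livers. That gene stayed within overlapping ranges, with log2 fold changes of -0.00 (95% interval -0.16 to 0.15) in C26-TDCA and 0.04 (95% interval -0.12 to 0.19) in C26 livers. Stard4, a soluble sterol carrier and SREBP2 target, was at 43.9, 74.0 and 86.8 CPM in C26-TDCA livers, 35.2, 63.1 and 93.7 CPM in C26 livers and 147, 160.4 and 173 CPM in CT livers, again without overlap. Against CT livers, its log2 fold change was -1.24 (SE 0.18, adjusted p = 2.17e-06) in C26-TDCA and -1.33 (SE 0.18, adjusted p = 8.27e-07) in C26 livers.

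**Figure D2:**
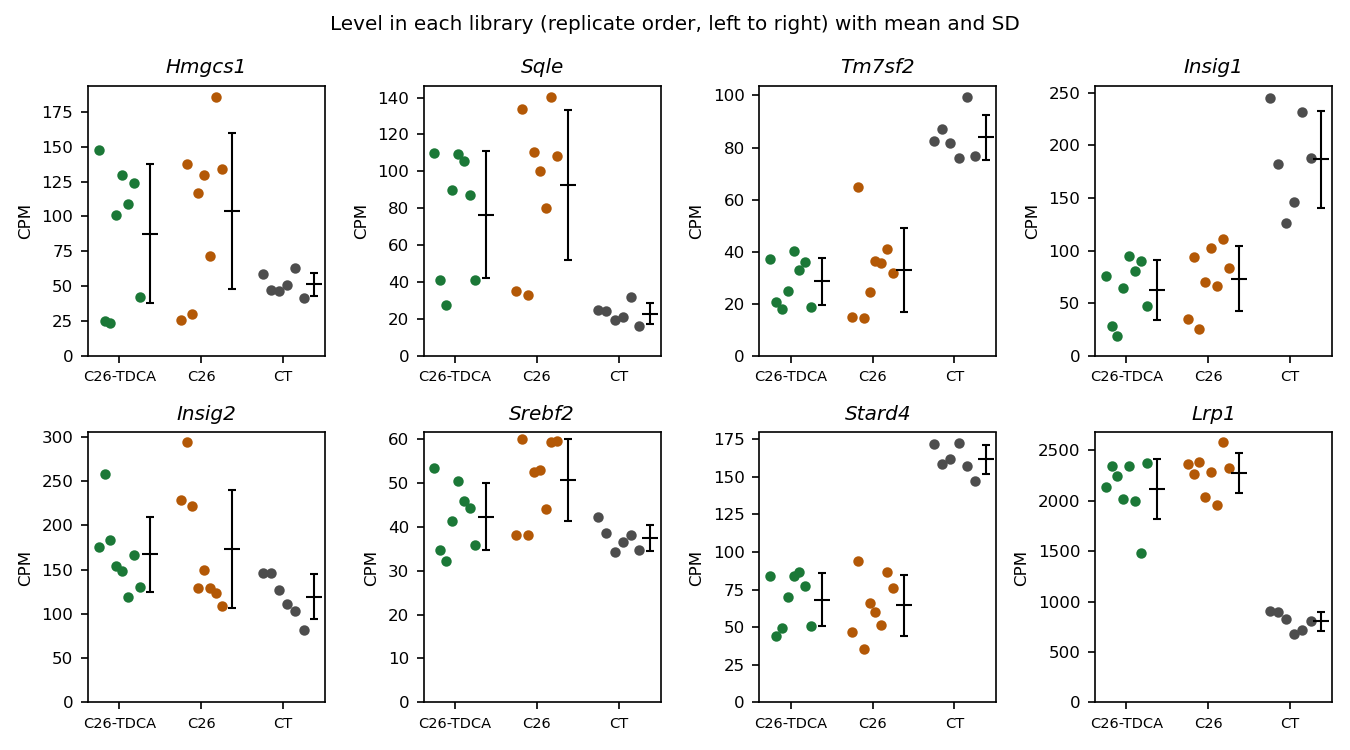
CPM of 8 members in each library (points, linear y axis from 0), with C26-TDCA, C26 and CT livers from left to right and the mean and SD of each group beside its points. Sqle and Lrp1 sit higher and Insig1, Tm7sf2 and Stard4 lower in the tumour-bearing groups, and Hmgcs1 spreads from 23.4 to 148 CPM in C26-TDCA and from 26.1 to 185 CPM in C26 against 41.5 to 63.4 CPM in CT livers.

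Most markers of non-parenchymal and blood-derived cells were higher in tumour-bearing livers, and some members, such as Lrp1 and Soat1, are known to be expressed in such cells as well. Kupffer cell markers, of which 11 of 12 were called higher in both comparisons, summed to 591 to 779 CPM in C26-TDCA, 488 to 747 CPM in C26 and 298 to 345 CPM in CT livers. Sinusoidal endothelial markers (11 of 13 higher in both) summed to 645 to 830, 467 to 798 and 358 to 431 CPM in the same 3 groups, and stellate cell markers (10 of 12 higher in C26-TDCA, 9 of 12 in C26) to 555 to 750.1, 437 to 676 and 300.3 to 389 CPM. Monocyte and neutrophil markers (8 of 10 higher in both) summed to 53.6 to 112, 56.3 to 139.9 and 37.1 to 51.0 CPM, and cholangiocyte markers (3 of 7 higher in C26-TDCA, 4 of 7 in C26) to 273 to 655, 260.0 to 788 and 34.2 to 51.5 CPM. That last sum was mostly Spp1, at a mean of 429 CPM in C26-TDCA, 411 CPM in C26 and 18.8 CPM in CT livers, while Krt19, Krt7 and Epcam, which define bile duct cells, averaged 0.563 to 1.23 CPM in the tumour-bearing groups and 0.581 to 1.19 CPM in CT livers and were not called. Of the stellate markers, Ecm1 was called lower in C26-TDCA, at -0.24 (adjusted p = 0.0389), and in C26 livers, at -0.41 (adjusted p = 0.000962), and Reln was called lower in C26 livers, at -0.43 (adjusted p = 0.00767); no marker of the other non-hepatocyte lists was called lower. Lyz2 was the largest part of the monocyte and neutrophil sum and was called in neither comparison. Its mean was 46.1 CPM in C26-TDCA, 44.9 CPM in C26 and 34.7 CPM in CT livers. No marker in the table was at 0 in all libraries of a group. The part of these cells in the values of Lrp1, Soat1 and the other members was not tested, and in bulk RNA fewer cells of a type and less RNA per cell cannot be told apart.

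Within the tumour-bearing groups most synthesis genes went up and down together from liver to liver. Of the 30 members, 20 had C26-TDCA 2, 3 and 8 as their 3 lowest C26-TDCA livers and C26 1 and 3 as their 2 lowest C26 livers, which held for 0.852% of all tested genes. These 20 were 7 of 8 early mevalonate genes (all but Ggps1), 10 of 11 late sterol genes (all but Ebp), Srebf2 and Insig1 among the 5 regulators, and Stard4 among the 6 genes of uptake, transport and storage. The 5 livers were picked after the values were seen, so this is a description with no test.

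The size of these swings can be read from single livers. Hmgcs1 was at 24.9, 23.4 and 42.0 CPM in C26-TDCA 2, 3 and 8 and at 101 to 148 CPM in the other 5 C26-TDCA livers. In C26 1 and C26 3 it was at 26.1 and 29.7 CPM, and at 71.9 to 185 CPM in the other 6 C26 livers. Sqle was at 41.4, 27.7 and 40.9 CPM in C26-TDCA 2, 3 and 8 and at 35.2 and 33.2 CPM in C26 1 and C26 3, all but 1 of them still above the highest CT liver at 31.8 CPM. In C26-TDCA 3, 22 of 30 members lay below every CT liver and 5 above; in C26 1, 22 lay below and 6 above. Of all tested genes, 33.2% lay below and 34.0% above in C26-TDCA 3, and 32.8% below and 34.8% above in C26 1. In C26-TDCA 5 the counts were 7 below and 19 above, and in C26 5 they were 7 below and 18 above, against 30.4% below and 30.7% above over all genes in C26-TDCA 5 and 34.6% below and 31.0% above in C26 5. Hmgcs1, for one, thus stood above the CT range in some tumour-bearing livers and below it in others.

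**Figure D3:**
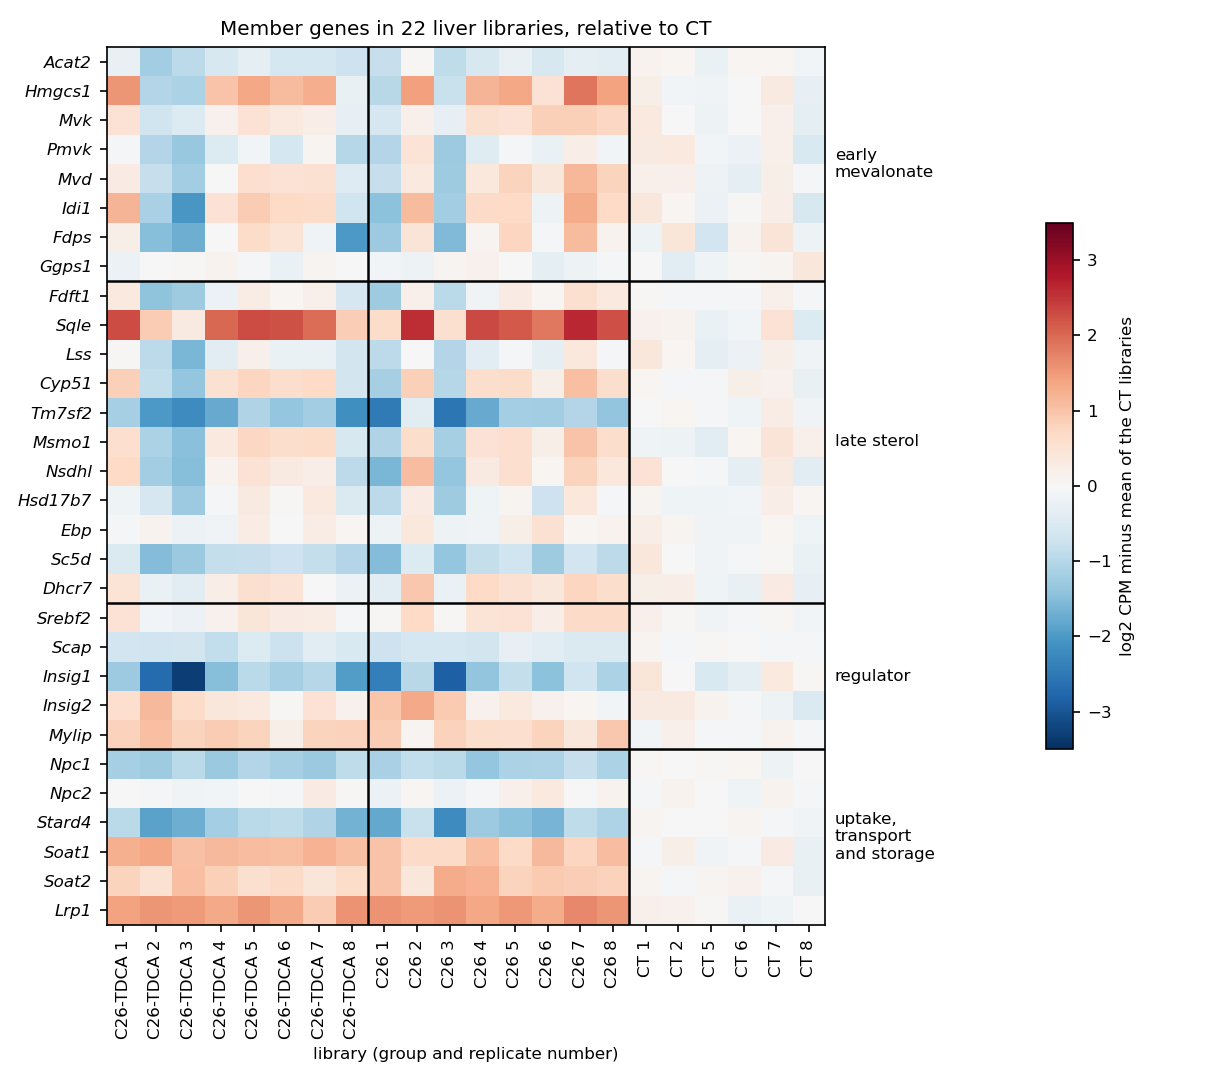
Log2 CPM of the 30 members (rows, by role) in each of the 22 libraries (columns, C26-TDCA, C26 and CT from left to right), relative to the mean of the 6 CT livers; red is higher and blue lower. Columns C26-TDCA 2, 3 and 8 and C26 1 and 3 are blue over most early and late synthesis genes, while Tm7sf2, Sc5d, Scap, Insig1, Npc1 and Stard4 are blue in every tumour-bearing liver.

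Other measures of these 5 livers also stood apart in part. C26 1 and C26 3 had the lowest values of the first principal component of all C26 libraries, at -51.5 and -50.6. C26-TDCA 2 and C26-TDCA 3 had the lowest of their group, at -45.0 and -46.6. C26-TDCA 8, at -34.3, lay above C26-TDCA 4, at -38.8, which is not one of these 5. Summed sinusoidal endothelial markers were 830, 815 and 736 CPM in C26-TDCA 2, 3 and 8, against 645 to 755 CPM in the other C26-TDCA livers. They were 753 and 798 CPM in C26 1 and C26 3, against 467 to 709.8 CPM in the other C26 livers. Total counts did not set them apart, at 27.9, 20.5 and 21.6 M in C26-TDCA 2, 3 and 8 and 28.1 and 23.6 M in C26 1 and C26 3. The share of counts in the 20 most counted genes was 39.2 and 37.5% in C26-TDCA 2 and 3, the highest of their group, and 36.4% in C26-TDCA 8, within the 34.8 to 36.8% of the other 5. In C26 1 and C26 3 it was 39.7 and 39.9%, the highest of their group, against 33.1 to 39.3% in the other C26 livers. Summed monocyte and neutrophil markers were lowest of the C26 livers in C26 1 and C26 3, at 60.6 and 56.3 CPM against 70.4 to 139.9 CPM, and lowest of the C26-TDCA livers in C26-TDCA 2, at 53.6 CPM, with C26-TDCA 3 and 8 inside the 64.3 to 112 CPM of the other C26-TDCA livers. By group mean, Lyz2 was the largest part of that sum. Summed stellate and cholangiocyte markers and the mitochondrial share of these 5 livers lay inside the range of the other livers of their group. Summed Kupffer cell markers did so too, except in C26-TDCA 8, the highest of its group at 779 CPM. Summed hepatocyte markers did so except in C26 1, the lowest of its group at 22930 CPM. The part of all these measures in the shared swing was not tested.

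The synthesis genes also varied more among tumour-bearing livers than among CT livers. The SD of log2 CPM among livers of a group exceeded that in CT livers for 28 of 30 members in C26-TDCA and for 28 of 30 in C26, against 59.4% and 67.0% of all tested genes. Its median over early mevalonate genes was 0.60 in C26-TDCA, 0.71 in C26 and 0.25 in CT livers, and over late sterol genes 0.58, 0.65 and 0.21. Over regulators it was 0.26, 0.28 and 0.12, over uptake, transport and storage genes 0.18, 0.19 and 0.13, and over all tested genes 0.22, 0.25 and 0.19. An SD above 0.5 was reached by 13 members in C26-TDCA, 15 in C26 and none in CT livers, against 15.4%, 19.6% and 14.8% of all tested genes. Ggps1 went the other way, with SDs of 0.13 in C26-TDCA, 0.16 in C26 and 0.27 in CT livers. So did Soat1 in C26-TDCA livers (0.11, against 0.20 in CT) and Lrp1 in C26 livers (0.13, against 0.17 in CT). Most synthesis genes went up and down together, so these counts are not of independent observations.

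**Figure D4:**
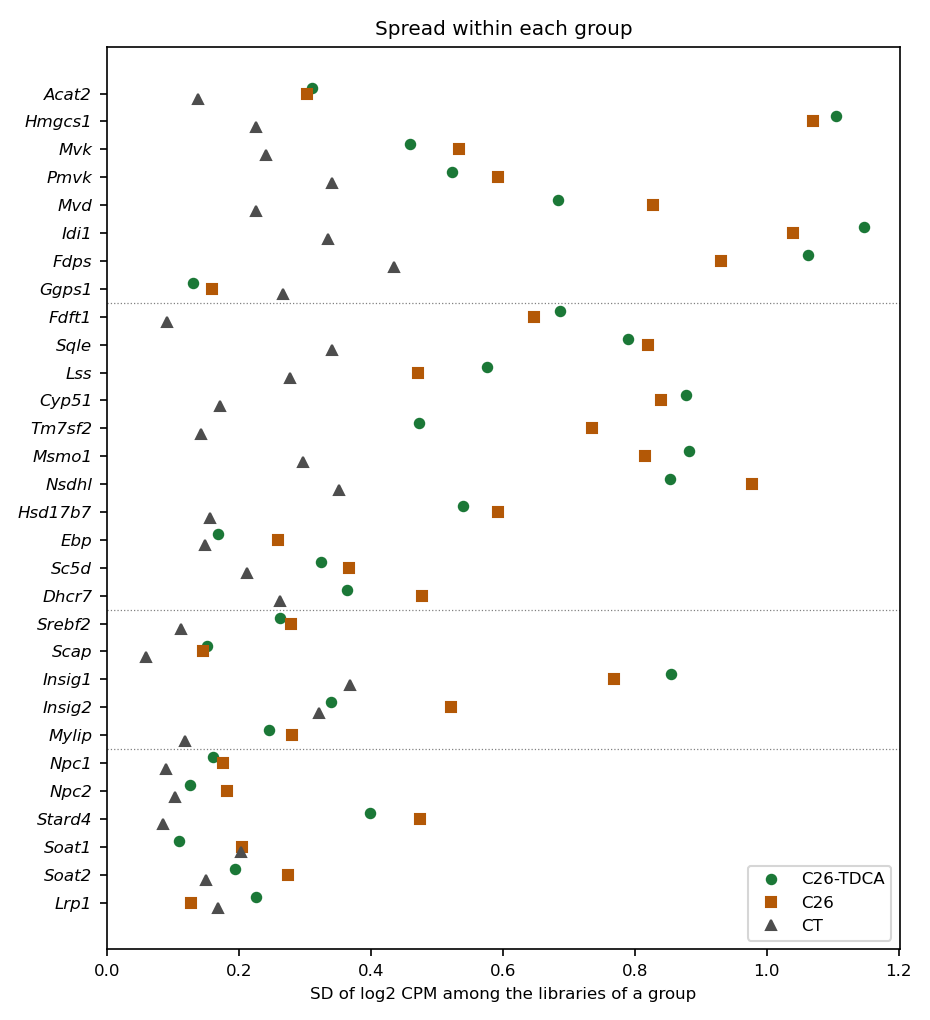
SD of log2 CPM among the libraries of a group (x axis) for each member, with circles for C26-TDCA (n = 8), squares for C26 (n = 8) and triangles for CT (n = 6); dotted lines divide the roles. Triangles lie left of both other symbols for nearly all early and late synthesis genes, and Hmgcs1 and Idi1 exceed 1 in both tumour-bearing groups.

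Correlations were computed over 24 relations, 8 pairs of members in 3 groups, with two-sided exact permutation tests and Benjamini-Hochberg adjustment. The tumour-bearing groups fell into separate clusters for some of these genes, so no value over a whole tumour-bearing group is given. The widest gap between neighbouring livers was taken on the log2 scale, and only where at least 2 livers lay on each side. This gap was largest for Sqle, at 54.0% of the C26-TDCA range and 57.2% of the C26 range. Among the genes of these pairs it was smallest for Srebf2 in C26-TDCA (29.2%) and for Stard4 in C26 livers (14.9%). The split was thus not equally clear for each gene. A subset of 6 C26 livers, without C26 1 and C26 3, replaced the whole group after the values were seen. The livers left out were the lowest in Hmgcs1 and Sqle, so the subset was chosen on tested values. The p-values below do not account for that choice. In these 6 livers, Hmgcs1 and Idi1 had r = 0.97 (exact permutation p = 0.00139, adjusted over the 8 pairs 0.0111) and rho = 1.0 (p = 0.00278). Hmgcs1 and Sqle had r = 0.90 there (exact permutation p = 0.00833, adjusted 0.0156) and rho = 0.83 (p = 0.0583). Sqle and Cyp51 had r = 0.96, Srebf2 and Hmgcs1 0.90, and Hmgcs1 and Insig1 0.85 (exact permutation p adjusted over the 8 pairs = 0.0156 for each). By rank, Hmgcs1 and Idi1 alone passed after adjustment (rho p adjusted 0.0222), and the next lowest adjusted rho p was 0.0778. Hmgcs1 with Stard4 (r = 0.81, exact permutation p = 0.0375, adjusted 0.05), Sqle with Insig1 (r = 0.68, p = 0.138) and Sqle with Tm7sf2 (r = 0.45, p = 0.357) did not pass. Without the 2 livers farthest from the median of the first gene, r was 0.61 for Hmgcs1 and Idi1, 0.42 for Hmgcs1 and Sqle, 0.87 for Sqle and Cyp51, 0.41 for Srebf2 and Hmgcs1, 0.72 for Hmgcs1 and Insig1, 0.64 for Hmgcs1 and Stard4, -0.02 for Sqle and Insig1 and 0.74 for Sqle and Tm7sf2. The 4 livers left are too few for a test of these values. The clusters of 5 and 3 C26-TDCA livers fall short of the 6 libraries asked of a correlation here and were not tested.

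In CT livers (n = 6), Hmgcs1 and Sqle had r = 0.90 (exact permutation p = 0.0194) and rho = 0.94 (p = 0.0167). Hmgcs1 and Idi1 had r = 0.88 (exact permutation p = 0.0222) and rho = 0.89 (p = 0.0333). Sqle and Tm7sf2 had r = 0.85 (exact permutation p = 0.0361) and rho = 0.77 (p = 0.103). For the other 5 pairs the exact permutation p of r was 0.114 or more. Adjusted over all 24 relations, p of r was 0.0275, 0.0296 and 0.0456 for the pairs named. That adjustment also takes in the whole tumour-bearing groups, not given here, whose low p-values bring the CT values down. It therefore does not show that a CT pair passes. No adjustment over the 8 CT pairs alone was made, and no CT pair is taken as passing after adjustment. Without the 2 livers farthest from the median of the first gene, r was 0.73 for Hmgcs1 and Sqle, 0.91 for Hmgcs1 and Idi1 and 0.51 for Sqle and Tm7sf2, again over 4 livers and with no test. Over all pairs of members in CT livers, the median r was 0.61 among the 20 members that were lowest together in the tumour-bearing groups and 0.13 among the other 10. By role, it was 0.50 within early mevalonate genes, 0.60 within late sterol genes, 0.62 between early and late genes, and 0.09 within uptake, transport and storage genes. All pairs share the same 6 libraries.

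TDCA against the untreated tumour-bearing group gave no call among the members. In C26-TDCA against C26 livers 0 of 30 passed the edgeR test, where 1.97% of all tested genes did. These were 256 higher genes (1.73%) and 35 lower genes (0.237%), counts that ranged over 54 to 527 and 5 to 67 when single libraries were left out, lowest without C26-TDCA 4 and highest without C26 1. DESeq2 and voom also called 0 members. An unadjusted p under 0.05 was found for 3 of 30 members (10.0%), against 15.8% of all genes. They were Soat1 at 0.26 (SE 0.09, adjusted p = 0.15), Srebf2 at -0.26 (SE 0.11, adjusted p = 0.245) and Soat2 at -0.24 (SE 0.10, adjusted p = 0.245). The 2 groups overlapped for all 30 members. Over all genes, only 0.0947% lay wholly above and 0.0541% wholly below (0.149% together). At such shares, and with 1.97% of genes called, 0 of 30 is no result particular to the members.

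The fitted direction was downward for most members, without any single gene passing. The log2 fold change was below 0 for 24 of 30 members, 7 of 8 early mevalonate and 9 of 11 late sterol genes among them, against 53.2% of all genes. The median was -0.15 over the members, -0.26 over early mevalonate genes and -0.15 over late sterol genes, against -0.01 over all genes. Since these genes go up and down together from liver to liver, their common sign is not a count of independent observations. The 95% intervals were wide for the genes that swing most: Hmgcs1 at -0.24 (-0.98 to 0.49), Sqle at -0.27 (-0.85 to 0.30) and Fdps at -0.37 (-1.10 to 0.36), the lowest fitted value. They were narrow for the steadier genes, with Npc1 at -0.08 (-0.23 to 0.07), Npc2 at -0.04 (-0.18 to 0.11) and Lrp1 at -0.10 (-0.28 to 0.07).

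**Figure D5:**
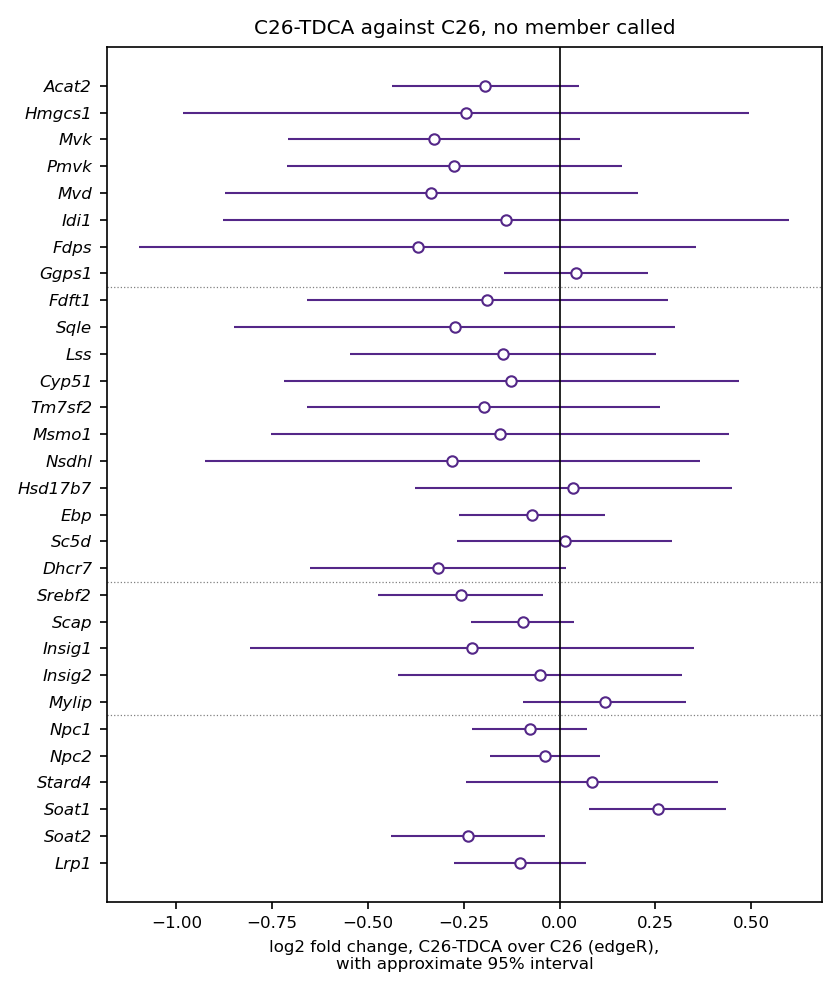
Log2 fold change of each member in C26-TDCA over C26 livers (x axis, edgeR), with approximate 95% intervals as lines; open points are not called, and dotted lines divide the roles. Points run from -0.37 for Fdps to 0.26 for Soat1, and all but 3 intervals include 0.

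Other genes around the pathway were read from 3 further lists. Against CT livers, 57.0% of all tested genes were called in C26-TDCA and 58.1% in C26 livers. In C26-TDCA against C26 livers the share was 1.97%. The counts of each list are to be read beside these shares. Of 12 genes of SREBP processing and sterol-dependent degradation, 6 were higher and 4 lower in C26-TDCA, and 5 higher and 4 lower in C26, against CT livers. Those with the lowest p in C26 livers were Erlin1, at 0.72 (adjusted p = 5.98e-09), Syvn1, at 0.89 (adjusted p = 2.12e-08), Rnf145, at -0.45 (adjusted p = 2.17e-05), and Erlin2, at -0.40 (adjusted p = 2.78e-05). Erlin1 and Erlin2 form a membrane complex, and Syvn1 and Rnf145 are ubiquitin ligases, in the endoplasmic reticulum. The proteases that cleave SREBP2 are encoded by Mbtps1 and Mbtps2. Mbtps2 was called in C26-TDCA livers, at 0.35 (adjusted p = 0.0109), and not in C26 livers, at 0.18 (adjusted p = 0.185); the direct comparison of these groups did not pass, at 0.17 (adjusted p = 0.446). Mbtps1 had log2 fold changes of 0.19 (adjusted p = 0.0352) in C26-TDCA and 0.17 (adjusted p = 0.0474) in C26 livers, calls that were lost in 9 and 15 of 31 alternatives.

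Of 12 genes of intracellular sterol transport, 3 were higher and 6 lower in C26-TDCA, and 3 higher and 5 lower in C26, against CT livers. Stard5, a sterol carrier, had a log2 fold change of -0.68 (adjusted p = 8.30e-08) in C26 livers, Lipa, the lysosomal acid lipase that frees cholesterol from its esters, -0.50 (adjusted p = 1.18e-06), Vps13a, a lipid transfer protein, -0.85 (adjusted p = 3.22e-06), and Osbpl2, an oxysterol-binding protein relative, -0.30 (adjusted p = 0.000122). Of 10 genes of the non-sterol isoprenoid branch, 1 was higher and 2 lower in C26-TDCA, and 3 higher and 1 lower in C26 livers. Nus1 and Dhdds, the subunits of the dolichol-making prenyltransferase, had log2 fold changes of 0.31 (adjusted p = 0.000197) and 0.24 (adjusted p = 0.0119) in C26 livers, Coq2, of coenzyme Q synthesis, -0.25 (adjusted p = 0.000308), and Fntb, a farnesyltransferase subunit, 0.50 (adjusted p = 0.00988). In C26-TDCA against C26 livers, 1 of these 34 genes was called, Vps13a, at 0.48 (adjusted p = 0.0355), with means of 14.8 ± 2.79 CPM in C26-TDCA and 10.6 ± 2.15 CPM in C26 livers (SD, n = 8 each). That call was lost in 14 of 31 alternatives; over all 31 the log2 fold change ran from 0.13 to 0.54 and the adjusted p from 0.00756 to 0.682. The call was lost in the fit of only the 2 groups, after removal of the length and GC trend, with the replicate block, with the block and that removal, and without C26-TDCA 1, 3, 4, 6 or 7 or C26 2, 4, 5, 6 or 8. In C26 against CT livers, the calls of Dhdds and Fntb were lost too, Dhdds after removing the length and GC trend with or without the block, and Fntb after removing it with the block. These alternatives for genes outside the 30 were chosen after the values were seen.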

How the data were processed

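PolyA RNA of 22 mouse livers was sequenced, 1 library per mouse, and the authors deposited raw read counts per Ensembl gene, which were used as they stand. Per the submitters' processing notes, which give no order or role, the build was GRCm38 and the tools were HISAT2 2.2.1, Trimmomatic 0.40, bcl2fastq 2.17, FastQC, DESeq2 1.42.0 and featureCounts 2.0.3. The sources used here do not give the strand setting, the annotation release or the handling of reads that match several genes. Symbols were taken from GENCODE M21, which matched 15438 of 15448 IDs.

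Columns were tied to mice by name and mice to groups by the labels. All 22 libraries entered 1 model in edgeR 4.0.16 (R 4.3.3), with TMM scaling, filterByExpr at a minimum count of 10 (14785 genes kept, 663 removed), a mean per group and no block. Contrasts were tested by edgeR's quasi-likelihood test, adjusted by Benjamini-Hochberg over all genes tested, at 0.05. Standard errors were derived from the log2 fold change and its F statistic, and 95% intervals are approximate. The scripts were tested on simulated data. Depth ran from 16.5 to 28.3 M counts, and limits from 3 counts cover counting error only.

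The text names the 30 members, up to 4 called genes of each further list by p in C26 against CT livers, the proteases that cleave SREBP2, and Vps13a. The members, lists, pairs and tests were chosen with earlier results of these data known. The alternatives tried were upper-quartile scaling, DESeq2's size factors and its test, voom with quality weights (limma 3.58.1), no filter, only the groups compared, removal of a loess trend (span 0.3) on transcript length and GC, a replicate block, and leaving out each library. Correlations used log2 CPM with a prior count of 2 and, as alternatives, 0.5 or DESeq2 size factors. A comparison of INSIG proteins was not made, and some genes of the pathway are not reported here. Whether mice of 1 group shared a cage or litter is not stated, so p-values measure the spread between these samples.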

Additional observations from a re-analysis of the deposited data

Results flagged for a closer look

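In 6 of 90 combinations of a member and a group, 1 library stood far from the others by Dixon's test, which chance gives in about 1 of 20 groups. Sc5d was at 304 CPM in CT 1, the highest CT liver, and Npc1 at 176 CPM in CT 7, the lowest. In the C26-TDCA group, Insig2 was highest in C26-TDCA 2 at 258 CPM, Npc2 was highest in C26-TDCA 7 at 55.4 CPM, Mylip was lowest in C26-TDCA 6 at 9.45 CPM, and Lrp1 was lowest in C26-TDCA 7 at 1476 CPM. The calls of Sc5d, Npc1, Mylip and Lrp1 were kept when any single library was left out, and the Insig2 call in C26-TDCA livers was lost without C26-TDCA 2. The cause was not tested.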

How the results depend on the processing

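No value changed direction past the threshold under any alternative run. Of 810 values of single members outside the fits that leave out a library, 794 kept direction and side of the threshold, 7 lost a call and 9 gained one; of 1980 values with 1 library left out, 1940 kept both, 34 lost and 6 gained a call. All 7 lower members of each comparison with CT livers kept their call throughout, as did 5 of 6 higher members in C26-TDCA and 5 of 9 in C26 livers. The exceptions were Hmgcs1, Dhcr7, Srebf2 and Insig2 in C26 and Insig2 in C26-TDCA livers. Members called in C26-TDCA against CT numbered 5 to 6 higher and 7 to 8 lower with single libraries left out, and in C26 against CT 6 to 9 higher and 7 lower.

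Over all genes, calls in C26-TDCA against C26 livers (256 higher, 35 lower) depended most on the setting: 440 and 111 with the DESeq2 test, 409 and 59 with voom, 41 and 4 with only the 2 groups fitted, and 12 and 5 after removing the trend on length and GC. With a replicate block they were 19 and 2, and with both the block and that removal 0 and 0. Leaving out single libraries gave 54 (without C26-TDCA 4) to 527 (without C26 1) higher and 5 (without C26-TDCA 4) to 67 (without C26 1) lower calls; the cause was not tested. The higher count moved by over 1.5 times without C26-TDCA 2, 3, 4, 5, 6 or 8 or C26 1, 5, 6, 7 or 8, and the lower count without C26-TDCA 3, 4, 5, 6 or 8 or C26 1, 5, 6 or 8. The labels do not say that a replicate number ties mice of different groups. Same-numbered libraries of C26-TDCA and C26 correlated at -0.20 to 0.34 in their deviations, over 0.1 in 5 of 8 pairs. Of these 8 C26-TDCA libraries, 2 correlated best with their own number in C26. Against CT, 3 of 6 C26-TDCA libraries and 0 of 6 C26 libraries did so with theirs. These values cannot decide whether the mice were paired. Against CT livers, the block gave 8 higher and 8 lower members in C26-TDCA and 9 and 7 in C26. All 16 correlations recomputed in CT livers with another scaling or prior count kept their side of the threshold. That threshold was applied to the unadjusted exact permutation p, so passing after adjustment was not tested here. The 16 do not include the values without the 2 livers farthest from the median of the first gene. There, r of Hmgcs1 and Insig1 went from 0.60 to -0.50, and r of Hmgcs1 and Stard4 from 0.48 to 0.98. Only 4 CT livers are left in these values, too few for a test. Alternatives for named genes outside the 30 were added after seeing the data. Depth limits only the least abundant members, since 3 counts equal at most 0.179 CPM.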
